A study of Saccharomyces cerevisiae with 15 samples.

Results

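Wild-type budding yeast (Saccharomyces cerevisiae) sampled after 60 min with arsenate was compared with untreated wild type sampled at 0 min, with 3 arrays in each group. These 6 arrays were chosen by their genotype, agent and time labels from the 15 arrays of the series, and the comparison ran over 5582 genes. The other 9 arrays came from yap1, yap8 and y1y8 mutants after 60 min with arsenate, 3 arrays each. They entered the quantile normalization and the estimate of the spread, and mutant values are given for OSI1 and ARR3. Arsenate and time changed together, since no untreated sample at 60 min is among those analysed here, so an effect of arsenate and an effect of the additional time in culture cannot be told apart. The labels call the strain WT and name neither its background nor a dose. The design text of the series gives 2 mM arsenate for transformed yap1yap8 cells kept in it until exponential phase, and whether that dose and those plasmids apply here is not settled by the sources. The labels do not say whether replicates came from separate cultures, so the p-values measure the spread between replicate arrays over all 15 arrays, which may be technical.

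Arsenate is the pentavalent form of arsenic. It resembles phosphate and enters yeast through phosphate transporters. The reductase Arr2 turns it into arsenite, which the membrane transporter Arr3 exports and the vacuolar pump Ycf1 stores as a glutathione conjugate. The regulators Yap8 (gene ARR1) and Yap1 are known to act on these genes. Arsenite binds thiol groups of proteins and of glutathione, the sulfur-containing tripeptide that buffers the redox state of the cell and is made from cysteine.

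A signal below is the array intensity after quantile normalization, which gives all arrays the same distribution. A log2 change is the arsenate mean minus the untreated mean on the log2 scale, ± its standard error (SE), with 3 arrays a group, and a bare value in brackets after a gene is its log2 change. A gene is said to rise or fall where limma's test gave an adjusted p under 0.05 over all 5582 genes. Levels of different genes are not set against each other, because each probe set has its own brightness.

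On each of the 6 arrays 98.3% to 99.3% of yeast probe sets were called present. Correlations across genes, which are not independent replicates, ran from 0.9803 to 0.9928 among untreated arrays and from 0.9934 to 0.9946 among treated arrays. The untreated replicate 2 stood apart from the other untreated arrays. In it 107 genes lay over 2-fold from the mean of the other 2 untreated arrays, 87 of them in the direction of the arsenate arrays, against 41 and 47 such genes for untreated replicates 1 and 3, of which 15 and 15 lay in that direction. Its values moved with trehalose and glycogen genes, small stress genes and ribosome assembly genes, and counts given below that move by about 1.5 times or more without it are printed both ways. Signals of spiked-in bacterial transcripts before normalization also differed between the groups. The mean DapX signal was 359, 434 and 184 on the untreated and 674, 459 and 596 on the treated arrays. Like DapX, LysX and ThrX were higher on every treated array than on any untreated one, while PheX, BioB and CreX overlapped. The part of these differences in the results was not tested. The alpha pheromone gene MF(ALPHA)1 had signals of 6983, 6488 and 6951 on the untreated arrays and 2387, 3061 and 2448 on the arsenate arrays, and the a-pheromone genes MFA1 and MFA2 were called absent on all untreated arrays, MFA1 present on 1 treated array. The other a-specific genes, STE2, STE6, BAR1 and AGA2, were called present on all 6 arrays at signals of at most 320, where STE6 rose (1.36), STE2 fell (-0.93), AGA2 fell 1.99-fold and BAR1 was not called. LYS2 was called absent on all 6 arrays, and MET17 on all 3 untreated and 1 of the treated arrays. YAP1 and ARR1 gave signal on every array.

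**Figure D1:**
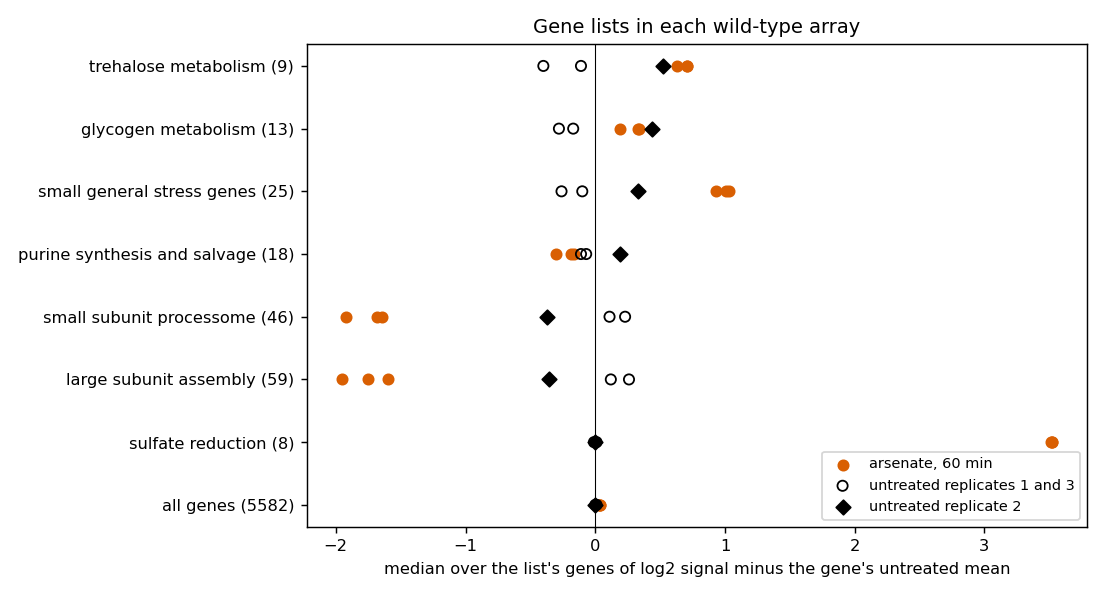
Median, over the genes of a list, of each array's log2 signal minus the gene's untreated mean, with the number of genes in brackets. Untreated replicate 2 (diamond) lay at 0.52 for trehalose genes, near the arsenate arrays at 0.63 to 0.71, and at 0.44 for glycogen genes, above the arsenate arrays at 0.19 to 0.34, while for sulfate reduction it lay with the other untreated arrays.

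Most genes differed between the groups. Of 5582 genes, 2343 were higher (42.0%) and 2192 were lower (39.3%) after arsenate, 81.2% together, and the median log2 change over all genes was 0.03. Quantile normalization largely sets this small median, and a shift common to most genes could not be seen after it. List counts below are to be read against these shares. A change of at least 2-fold was found for 959 higher genes (17.2%) and 992 lower genes (17.8%). At least 4-fold, 268 genes were higher and 298 lower, and at least 16-fold, 37 were higher and 13 lower. The groups did not overlap for 82.6% of genes. With genes in 4 bins of equal size by mean signal, 19.8% of the dimmest bin rose and 20.2% fell by at least 2-fold, and 13.6% and 16.5% of the brightest, so that large changes occurred at all signal levels. The authors' deposited table lists 3654 of these genes, and 3635 have the same direction there. Sizes can differ. Of the 30 genes with a standard symbol that rose or fell most here, 4 differ by over 1.5 times from the authors' deposited table, which gives PLB2 a fall of 5.8-fold (21.0-fold here), CLB6 3.81-fold (15.3-fold here), ARR3 a rise of 48.69-fold (76.6-fold here) and HSP30 29.69-fold (52.8-fold here), and the cause was not tested.

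**Figure D2:**
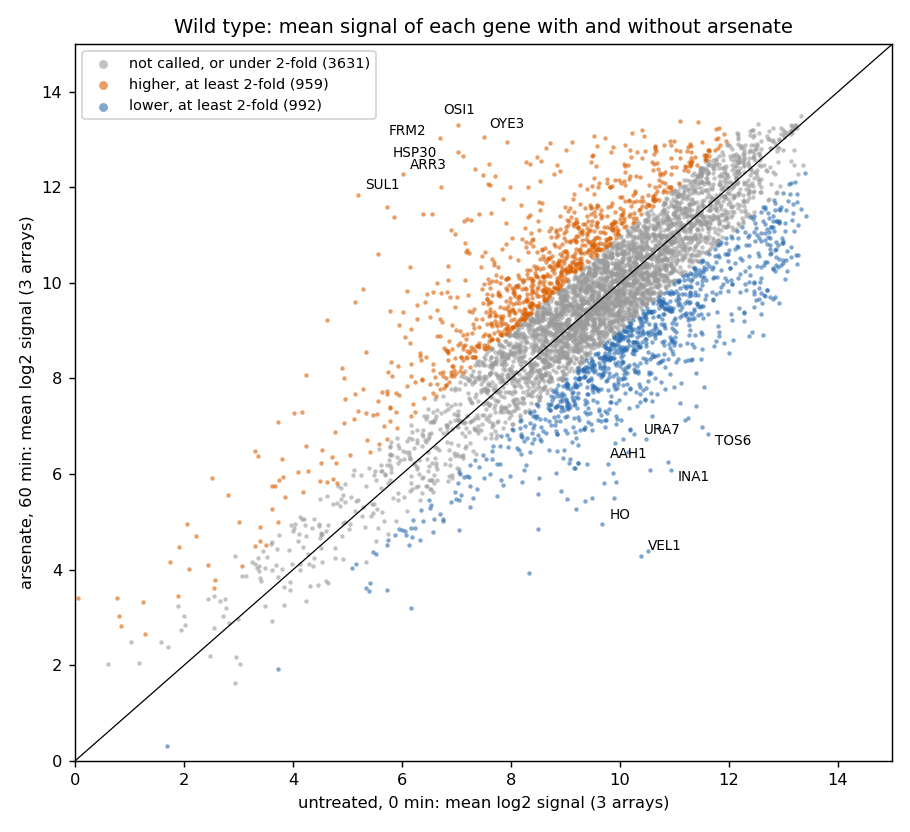
Mean log2 signal of each gene without treatment (x axis) and after arsenate (y axis), 3 arrays each, with the diagonal marking no change. The 959 genes higher by at least 2-fold and the 992 lower ones lie on both sides across the whole range, and the 6 largest rises and falls with a standard symbol are named.

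The arsenic genes changed unequally. ARR3, the arsenite exporter, had signals of 77.5, 56.0 and 62.8 on the untreated arrays and 5085, 4769 and 5061 on the arsenate arrays. That was a 76.6-fold rise (log2 change 6.26 ± 0.16, adjusted p = 1.02e-12), and the groups were far apart. ARR2, the arsenate reductase, which lies beside ARR3, had signals of 2403, 1912 and 2218 on the untreated arrays and 4186, 4614 and 4273 on the arsenate arrays and rose by less (log2 change 1.01 ± 0.13). ARR1, the gene of the regulator, had signals of 2592, 2707 and 2343 on the untreated arrays and 2284, 2291 and 2670 on the arsenate arrays, and its log2 change of -0.08 ± 0.27 did not pass the test (adjusted p = 0.798). YCF1, the vacuolar pump, rose 2.37-fold. FPS1, the glycerol channel through which arsenite enters, fell slightly (log2 change -0.24 ± 0.05). Among phosphate transporters PHO89 rose (log2 change 1.90) and PHO90 fell (-1.89), while PHO84, the main high-affinity carrier, had a log2 change of 0.38 ± 0.34 and was not called. PHO87 fell by little (-0.27).

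The Yap regulators, a family of basic leucine zipper factors, rose in 6 of 8 cases and fell in 1. YAP5, which responds to iron, had the largest log2 change of the list (2.91 ± 0.09), followed by CAD1 (2.22 ± 0.11), a relative of YAP1. YAP1 itself had signals of 1807, 2099 and 1558 on the untreated arrays and 3325, 3602 and 2911 on the arsenate arrays and rose 1.81-fold. YAP6 fell (log2 change -0.62), a call that 7 of 16 alternatives lost, among them the fits without any 1 of the untreated arrays or without treated replicate 3.

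**Figure D3:**
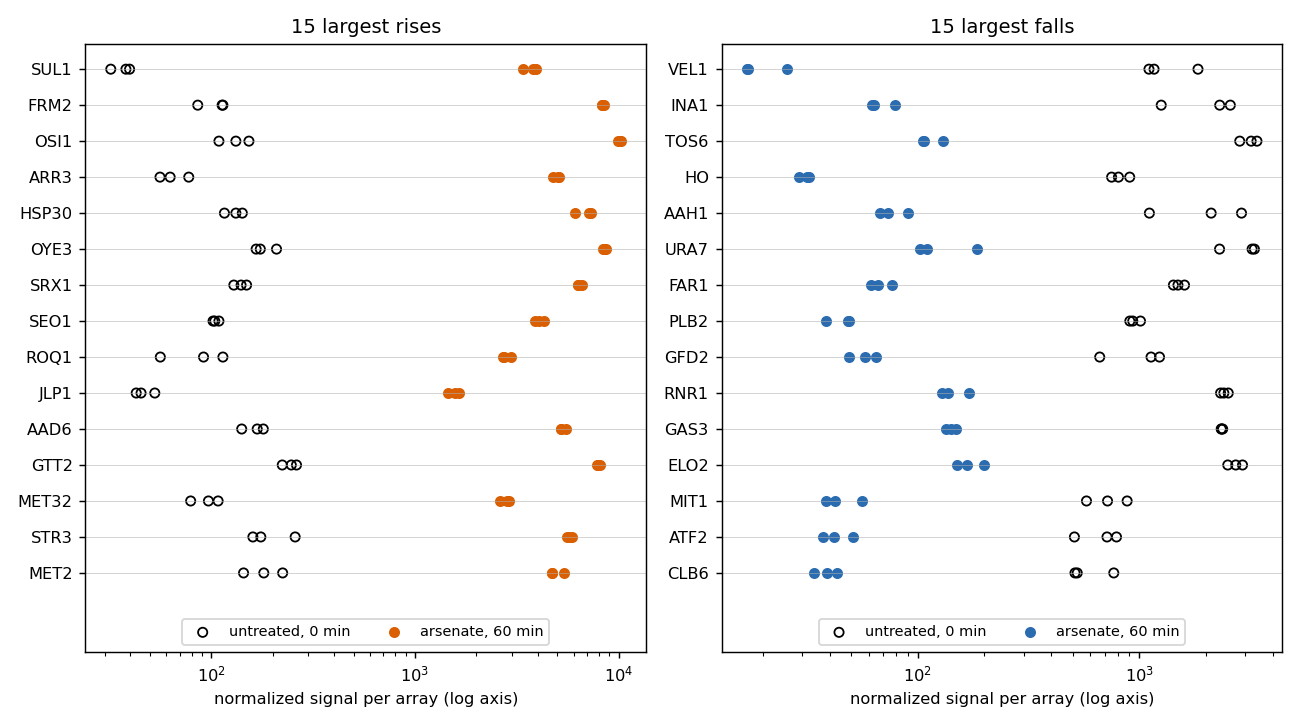
Normalized signal of the 15 genes with a standard symbol that rose most and the 15 that fell most, one point per array on a log axis, open circles untreated and filled circles after arsenate. Genes were picked among those whose groups did not overlap, so the separation of the groups was a condition of entry. SUL1 lay at 32.1 to 39.7 without treatment and 3392 to 3945 after arsenate.

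Sulfur assimilation genes were among the largest rises. Yeast takes up sulfate, reduces it to sulfide and builds cysteine and methionine from it. SUL1, a high-affinity sulfate permease, had signals of 39.7, 38.1 and 32.1 on the untreated arrays and 3392, 3774 and 3945 on the arsenate arrays, a 101-fold rise (adjusted p = 7.28e-15). SUL2, the other sulfate permease, rose 23.1-fold from a mean signal of 208 to 4817. Of 11 uptake and scavenging genes, 10 rose and 1 fell, with a median log2 change of 4.16 against 0.03 over all genes. The risers included SEO1, a permease of unsettled substrate (log2 change 5.28), JLP1, a dioxygenase that frees sulfite from sulfonates (5.05), and MMP1, the S-methylmethionine permease (4.50). The gene that fell was SSU1, which exports sulfite (log2 change -0.93 ± 0.18).

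All 8 sulfate reduction genes rose, by log2 changes of 2.21 to 4.18. MET3, which activates sulfate, had signals of 494, 653 and 536 on the untreated arrays and 7559, 7663 and 8296 on the arsenate arrays. MET16, which reduces the activated sulfate to sulfite, rose 13.7-fold, and MET10, a subunit of sulfite reductase, 9.72-fold. MET1 and MET8, which make the siroheme cofactor of that enzyme, had log2 changes of 4.18 and 4.01. Downstream the pattern was mixed, since of 18 methyl cycle and transsulfuration genes 12 rose and 3 fell. STR3 and STR2, which carry sulfur from cysteine towards methionine, rose (log2 changes 4.88 and 2.42), as did MET2, which makes the acceptor of sulfide (4.77). SAH1, which clears S-adenosylhomocysteine, fell (-1.10). MET17, also on this list, had mean signals of 4.04 without treatment and 7.16 after arsenate and was not called. It was called absent on all 3 untreated and 1 of the treated arrays, and what this means for the pathway in this strain was not tested. Among the regulators MET32, a DNA-binding partner of Met4, rose from a mean signal of 94.0 to 2775, whereas its paralog MET31 fell (log2 change -0.44 ± 0.08). MET28 and MET30 also rose (2.91 and 2.07).

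Genes of redox defence were mostly higher. SRX1, sulfiredoxin, which repairs overoxidized peroxiredoxin, had signals of 129, 149 and 140 on the untreated arrays and 6285, 6322 and 6630 on the arsenate arrays, a 46.1-fold rise. Of 21 thioredoxin, peroxiredoxin and glutaredoxin genes, 16 rose and 4 fell. Without untreated replicate 2 the counts were 17 and 2, and without treated replicate 2 or 3 the falls were also 2. GRX8, a glutaredoxin, and TSA2, a peroxiredoxin, had log2 changes of 4.15 and 3.07, while TSA1, the major peroxiredoxin, had 0.12 ± 0.06 and was not called (-0.17 and -0.22 under scaling by the 75th percentile and the median). GRX4, a glutaredoxin of iron signalling, fell (log2 change -1.67 ± 0.08) and its paralog GRX3 rose (0.57). TRX2 rose (0.44, but 0.00 and -0.05 under scaling by the 75th percentile and the median) and TRX1 fell (-0.32). Among 21 glutathione genes 18 rose and 1 fell. The glutathione transferase GTT2 had signals of 223, 262 and 247 on the untreated arrays and 8085, 7814 and 7868 on the arsenate arrays. The omega-class transferases GTO1, GTO3 and ECM4 rose by log2 changes of 4.06, 3.35 and 2.92, and the one gene that fell was GTT3 (-0.59).

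A list of aryl alcohol dehydrogenases, old yellow enzymes and nitroreductases also held other oxidoreductase genes, such as OSI1, ZTA1, GCY1 and ADH6. All 16 of its measured genes rose, with a median log2 change of 2.20, and 2 of them are read by probe sets that can bind other genes. FRM2, a nitroreductase-like protein, had signals of 113, 85.8 and 114 on the untreated arrays and 8296, 8280 and 8495 on the arsenate arrays. OSI1, an oxidoreductase gene known to respond to oxidative stress, had signals of 153, 109 and 132 on the untreated arrays and 9924, 10214 and 10137 on the arsenate arrays. These signals lay near the upper end of the range, where the highest untreated mean signal of any gene was 10937. OYE3, an old yellow enzyme, rose 46.7-fold and its paralog OYE2 1.80-fold. AAD6, an aryl alcohol dehydrogenase, rose 32.8-fold. In the mutants with arsenate, OSI1 had mean signals of 174 in yap1, 10169 in yap8 and 209 in y1y8, and ARR3 had 2642, 1463 and 74.2.

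Enzymes that supply NADPH, the reductant of these systems, were higher in 10 of 20 cases and lower in 7, near the 42.0% and 39.3% of all genes. POS5, the mitochondrial NADH kinase, rose (log2 change 1.90 ± 0.10). The second copies GND2, TKL2 and SOL4 rose (1.87, 1.75 and 1.39), while GND1, TKL1 and SOL3 fell (-0.81, -0.31 and -0.96). RKI1, ribose-5-phosphate ketol-isomerase, fell from a mean signal of 2192 to 180 (log2 change -3.61 ± 0.18), and ALD6, the cytosolic acetaldehyde dehydrogenase, fell as well (-2.02). Among 20 efflux pump genes 9 rose and 9 fell, again near the shares of all genes, with FLR1, a multidrug transporter, up by a log2 change of 4.18 and TPO1, a polyamine exporter, down (-1.98).

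Chaperone genes split by class. HSP30, a plasma membrane stress protein, had signals of 116, 142 and 132 on the untreated arrays and 7166, 6084 and 7298 on the arsenate arrays. Of 14 disaggregase, small heat shock and sorting genes 13 rose and 1 fell. BTN2 and CUR1, which sort misfolded proteins, rose by log2 changes of 4.21 and 2.91, and HSP42, a small heat shock protein, by 2.21. Of the cytosolic Hsp70 genes the inducible SSA3 and SSA4 rose 18.8-fold and 6.86-fold. The ribosome-bound SSB1 and SSB2, which fold new chains, fell (-1.08 and -1.85), and the probe set of SSB1 can bind other genes. HSP82, the inducible Hsp90, rose (1.16 ± 0.06) and PPT1, the phosphatase that acts on Hsp90, fell (-1.71 ± 0.10). Of 22 endoplasmic reticulum folding genes 8 rose and 13 fell, with the oxidase ERO1 up (1.44) and the disulfide isomerase relative EUG1 down (-1.61). The CCT chaperonin and prefoldin list had a median of 0.01, which turned to -0.21 and -0.27 with scaling by the 75th percentile and by the median.

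All 33 core and regulatory particle genes of the proteasome rose, within a narrow range of log2 changes from 0.20 to 1.25. PRE8, a core subunit, had signals of 2472, 2500 and 2428 on the untreated arrays and 5892, 6004 and 5759 on the arsenate arrays. UMP1, which helps assemble the core, rose 2.36-fold. Of 24 ubiquitin and shuttle genes 20 rose, led by DDI1, a ubiquitin receptor (2.49), and DOA4, a deubiquitinase (2.11), and 2 fell, TOM1 most (-1.06), or 1 without treated replicate 1 or 2 or untreated replicate 1 or 3. In autophagy 21 of 27 genes rose and 3 fell, the falls being 2 without untreated replicate 2 and 1 without untreated replicate 3. ATG8, whose lipid-linked protein coats the autophagosome, had signals of 568, 1022 and 677 on the untreated arrays and 5026, 4166 and 4861 on the arsenate arrays. ATG29 and ATG16 had log2 changes of 3.30 and 3.26, and ATG27 fell (-0.56).

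Counts for reserve carbohydrate genes depended on untreated replicate 2. Of 9 trehalose genes 6 rose and 1 fell with all arrays (median log2 change 0.70), and without that array 8 rose and 0 fell (median 0.96), the falls also being 0 without treated replicate 3. Of 13 glycogen genes 3 rose and 4 fell, and without it 8 rose and 3 fell. GSY1, a glycogen synthase, had signals of 549, 1961 and 715 on the untreated arrays and 207, 208 and 140 on the arsenate arrays, a log2 change of -2.34 ± 0.41, or -1.79 without that array. NTH1, the neutral trehalase, rose (1.23 ± 0.08). Of 25 small general stress genes 20 rose and 2 fell, with TMA10 (3.70, and 4.17 without untreated replicate 2) and the hydrophilin GRE1 (3.41) highest and SDS23 lowest (-0.65).

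Of 16 hexose transporter and sensor genes 3 rose and 6 fell, against 42.0% and 39.3% of all genes. HXT2, a high-affinity transporter, had signals of 2313, 1657 and 2256 on the untreated arrays and 198, 312 and 187 on the arsenate arrays, a log2 change of -3.18 ± 0.29. HXT4, HXT7 and HXT1 fell too (-2.92, -2.58 and -2.26), and HXT7 is read by a probe set that can bind other genes. HXT13, called absent on all untreated arrays, was higher (adjusted p = 0.00175), by an estimate of 3.96-fold here and 2.09-fold in the authors' deposited table. In glycolysis and fermentation 10 of 24 genes rose, near the 42.0% of all genes, 4 fell (39.3% of all genes) and 10 were not called. The rises were 6 without treated replicate 2 and 5 without untreated replicate 1, and the list's median of 0.08 turned to -0.24 and -0.30 under scaling by the 75th percentile and the median. PDC6, a minor pyruvate decarboxylase low in sulfur amino acids, rose 17.5-fold, and PDC5 fell (-1.31). Of 12 gluconeogenesis and glyoxylate genes 10 rose and 0 fell, with MLS1, malate synthase, at 2.88. Of 19 citrate cycle genes 6 rose and 9 fell (9 and 9 without untreated replicate 2), against 42.0% and 39.3% of all genes. CIT3 was up (1.76) and the aconitase ACO1 down (-1.79). In the respiratory chain 20 of 36 genes were not called, while 81.2% of all genes were called, and INH1, the inhibitor of the ATP synthase, fell most (-2.69 ± 0.23).

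Genes of ribosome production fell together. Of 76 large subunit ribosomal protein genes 74 fell, and of 53 small subunit genes all 53 fell, with median log2 changes of -2.10 and -2.08. RPL9A had signals of 6293, 6376 and 6410 on the untreated arrays and 443, 524 and 488 on the arsenate arrays. The one that rose was RPL15B (0.26 ± 0.09), a call that 3 of 16 alternatives lost, those without treated replicate 2 or untreated replicate 1 among them. Of these genes 12 and 14 are read by probe sets that can also bind other genes, so paralogs may not be separated. In contrast, the mitochondrial ribosomal protein genes had a median of -0.19, with 7 higher and 34 lower of 66, or 11 and 28 without untreated replicate 2.

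The assembly genes fell as well. In the small subunit processome 45 of 46 genes fell and in large subunit assembly all 59, and the medians of -1.73 and -1.79 became -1.91 and -1.99 without untreated replicate 2. SDA1, needed for export of the large subunit, had signals of 1802, 963 and 1653 on the untreated arrays and 84.9, 142 and 102 on the arsenate arrays. RNA polymerase I and III subunits fell in 18 of 19 cases, most for RPA190, the largest subunit of polymerase I (-2.89 ± 0.15). The RNA polymerase II list had a median of -0.36. Among translation factors 33 of 38 fell and 1 rose, namely HEF3, an elongation factor paralog (2.10), and ANB1, the low-oxygen form of eIF5A, fell most (-3.66). The import receptors KAP122 and KAP123, which carries ribosomal proteins, fell (-3.90 and -3.05).

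**Figure D4:**
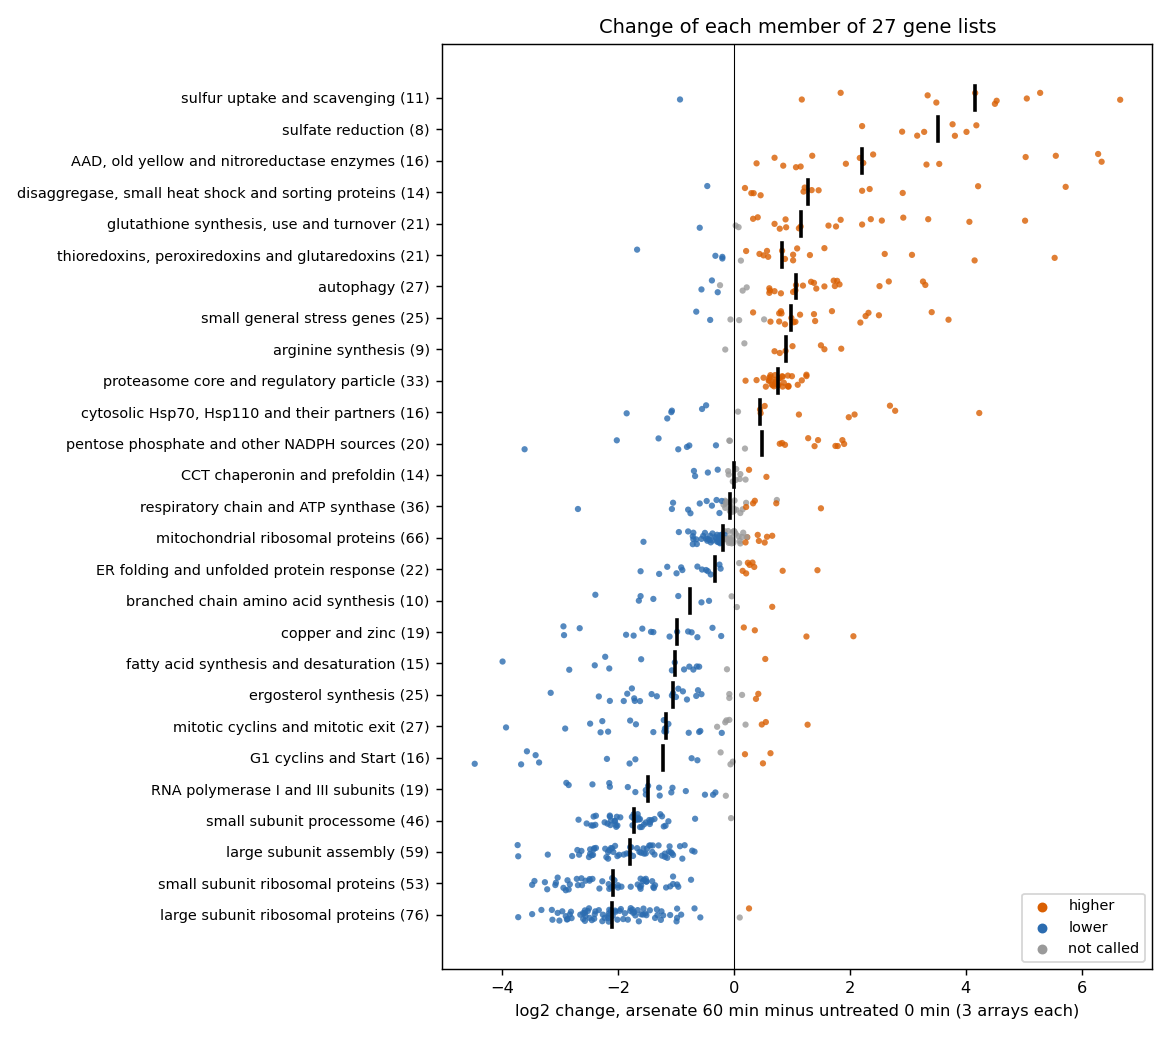
Log2 change of every measured member of 27 gene lists, one point per gene, coloured by its call, with a bar at the list's median and the number of genes in brackets. Sulfur lists lie furthest to the right, with medians of 4.16 and 3.53, and ribosomal protein lists furthest to the left, with medians of -2.08 and -2.10.

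Of 11 pyrimidine synthesis genes 8 fell and 2 rose. Of 18 purine genes 6 rose and 9 fell, and without untreated replicate 2 8 rose and 8 fell, against 42.0% and 39.3% of all genes. AAH1, adenine deaminase, had signals of 2887, 1109 and 2106 on the untreated arrays and 67.3, 90.8 and 73.3 on the arsenate arrays, a 24.7-fold fall (log2 change -4.63 ± 0.29, and -4.99 without untreated replicate 2). URA7, the main CTP synthase, fell 22.8-fold, whereas its paralog URA8 rose (0.87 ± 0.09). FUR4, the uracil permease, fell (-3.23) and URA10, a minor orotate phosphoribosyltransferase, rose (2.79). The purine list had a median of -0.22, which was 0.03 without untreated replicate 2. Ribonucleotide reductase genes differed, with RNR1 at signals of 2323, 2403 and 2515 on the untreated arrays and 128, 170 and 137 on the arsenate arrays and RNR3, the damage-inducible form, slightly higher (0.44). PHR1, photolyase, and MAG1, a DNA glycosylase, rose (2.40 and 2.04).

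Amino acid pathways did not move as one. Arginine synthesis rose in 7 of 9 genes and fell in 0 (1 without untreated replicate 2), with the carrier ORT1 at 1.85. Branched chain synthesis fell in 7 of 10 and rose in 1, with LEU9 at -2.39 and BAT2 at 0.66. In lysine synthesis LYS20 and LYS1 rose (2.05 and 1.80) and LYS9 fell (-0.51). ARO9, an aromatic aminotransferase, rose (2.73 ± 0.13) and ARO4 fell (-1.26), while ARO3 rose (0.87). Of 19 permeases 6 rose and 10 fell, against 42.0% and 39.3% of all genes. AGP3, a low-affinity permease, rose 18.4-fold, and the proline permease PUT4 and the general permease GAP1 fell (-2.23 and -1.77).

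Lipid synthesis genes fell in most cases. Of 25 ergosterol genes 20 fell and 2 rose, or 1 without treated replicate 2 or 3 or untreated replicate 1 or 2. ERG3, the C-5 sterol desaturase, had signals of 4077, 3273 and 4179 on the untreated arrays and 414, 456 and 414 on the arsenate arrays. Of 15 fatty acid genes 13 fell and 1 rose. ELO2, a fatty acid elongase, fell 15.8-fold, the desaturase OLE1 5.29-fold and the synthase subunit FAS1 4.66-fold, and SPT23, an activator of OLE1, rose (0.54). HNM1, the choline transporter, led the falls in phospholipid synthesis (-3.28 ± 0.13), where 13 of 21 genes fell and 6 rose. TSC10, of the sphingolipid base pathway, fell (-2.28) and the base kinase LCB5 rose (1.31).

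Cell cycle genes of G1 and mitosis mostly fell. FAR1, an inhibitor of the G1 cyclin kinase, had signals of 1597, 1492 and 1423 on the untreated arrays and 66.0, 76.5 and 61.4 on the arsenate arrays. The G1 cyclins CLN1 and CLN2 fell 10.7-fold and 10.3-fold, and PCL1 and NRM1 fell too (-3.67 and -3.57), so that 10 of 16 genes were lower. BCK2, which acts at the G1 transition beside Cln3, rose (0.63). CLB6, an S-phase cyclin, had signals of 524, 766 and 512 on the untreated arrays and 43.3, 34.1 and 39.0 on the arsenate arrays. In mitosis 19 of 27 genes fell and 3 rose, DBF20 most (1.27). Of 49 replication genes 30 fell, among them the polymerase subunits POL2 and POL1 (-2.43 and -2.40), and 10 rose, with TAH11, which loads the helicase, highest (2.00). Histone genes, with the variants HTZ1 and CSE4 and the linker histone HHO1 included, fell in 9 of 10 cases, and the centromeric histone CSE4 rose (0.83). Of these genes 2 are read by probe sets that can bind other genes. HO, the endonuclease of mating-type switching, fell 26.5-fold. In bulk RNA, fewer cells in a phase and less RNA per cell cannot be told apart.

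Wall and metal genes moved in both directions. The wall kinase SLT2 and the PIR3 wall protein rose (1.67 ± 0.06 and 2.08 ± 0.09), the glucan synthase FKS1 fell (-1.04) and its paralog GSC2 rose (1.02). TIR3 and TIR1, mannoproteins of anaerobic cells, fell (-3.26 and -2.87). Of 30 iron genes 19 rose and 7 fell. HMX1, a heme oxygenase, rose (3.12 ± 0.09) and TIS11, which degrades messages of iron-using proteins, also did (2.52), while the cell wall protein FIT1 fell (-1.53). Of 19 copper and zinc genes 15 fell and 4 rose. IZH1, ZPS1 and ZAP1, the zinc-responsive regulator, fell (-2.94, -2.93 and -2.66), and the metallothionein CRS5 rose (2.06). VEL1, of unknown function, had signals of 1164, 1104 and 1837 on the untreated arrays and 17.0, 17.1 and 25.6 on the arsenate arrays, the largest fall of a gene with a standard symbol. In the phosphate regulon 10 of 22 genes rose, near the 42.0% of all genes, 1 fell (39.3% of all genes) and 11 were not called.

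Among 30 stress factors 19 rose and 5 fell, against 42.0% and 39.3% of all genes. The zinc cluster factors RDS1 and YRR1 had the largest rises (3.09 and 2.92), and the repressor NRG1 was up (2.30) and its paralog NRG2 down (-2.00). CRF1, a corepressor of ribosomal protein genes, rose (2.13 ± 0.13), and RAP1, a factor that binds those genes, fell (-2.55 ± 0.11). RAS1 and TPK3, of the protein kinase A pathway, fell (-2.39 and -2.31).

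Genes often used as references were not all level. ACT1 had signals of 10063, 8919 and 9257 on the untreated arrays and 9583, 9817 and 9924 on the arsenate arrays and a log2 change of 0.06 ± 0.06, which did not pass the test and turned to -0.21 and -0.27 under scaling by the 75th percentile and the median. TAF10 rose (0.70), TRS65 rose (1.21) and TUB2 fell (-0.71), and the median of the 12 reference genes was 0.07, or -0.22 and -0.28 under scaling by the 75th percentile and the median. The alpha-specific genes fell, all 4 of 4, STE3 for example by a log2 change of -1.89.

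Pairs of related genes were also set side by side. They were chosen with earlier results of these data known. Over all genes 42.0% were higher and 39.3% lower, and agreement in pairs of unrelated genes was not computed. Of 80 pairs listed, 74 had both members measured. In 36 both changed in the same direction, in 17 they changed in opposite directions and in 21 at least 1 member was not called, and 19 pairs lay over 2 apart on the log2 scale. Beside those above, COX5B, the low-oxygen form of a cytochrome oxidase subunit, rose (0.73) and COX5A fell (-0.59). NDE2, an external NADH dehydrogenase, rose (1.50) and NDE1 fell (-1.07). ORM2 and GSP2 rose by little (0.31 and 0.74) while ORM1 and GSP1 fell (-1.28 and -0.34). ADH2, the glucose-repressed alcohol dehydrogenase, fell (-1.27) and ADH1 rose by little (0.18), a call that 7 of 16 alternatives lost, its value turning to -0.22 and -0.28 under the same scalings. The difference within a pair was not itself tested.

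**Figure D5:**
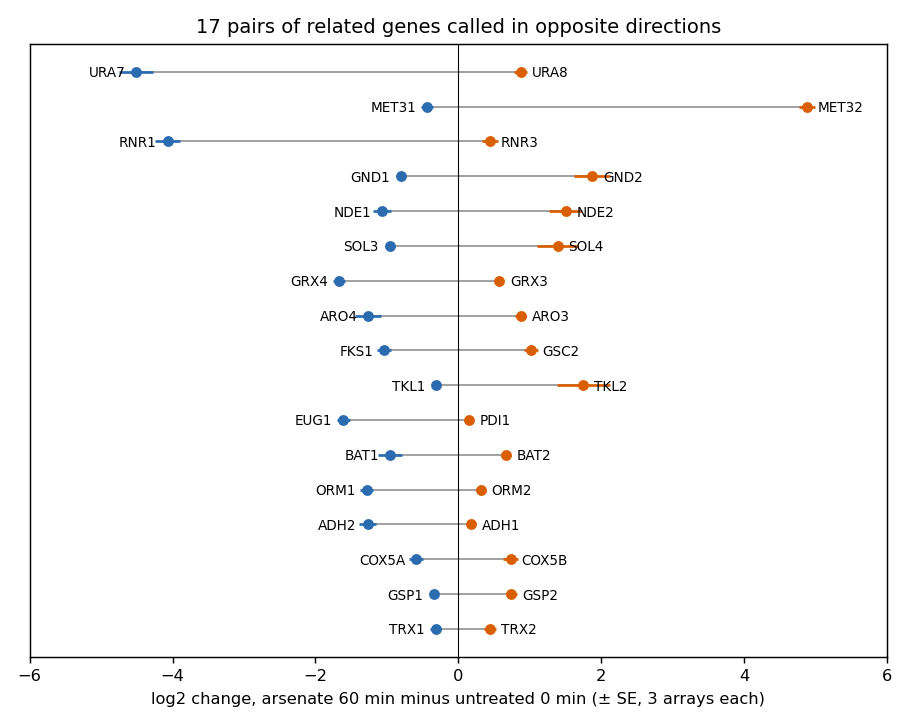
Log2 change ± SE of both members of the 17 gene pairs called in opposite directions, ordered by the distance between them, orange higher and blue lower. URA7 and URA8 lie furthest apart, at -4.51 and 0.87, and TRX1 and TRX2 closest, at -0.32 and 0.44 (TRX2 at 0.00 and -0.05, and ADH1 at -0.22 and -0.28, under scaling by the 75th percentile and the median).

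Other genes among the 15 largest falls belong to varied functions. INA1, of unknown function, had signals of 2570, 1254 and 2302 on the untreated arrays and 63.3, 78.6 and 62.4 on the arsenate arrays, and TOS6, a predicted cell wall protein, fell 27.5-fold. PLB2, a phospholipase B, fell 21.0-fold, GAS3, a wall glucan-modifying enzyme relative, 16.6-fold, and ATF2, an alcohol acetyltransferase, 15.3-fold. MIT1, a regulator of pseudohyphal growth, fell 15.8-fold and GFD2 17.1-fold. Among the rises, ROQ1, which redirects a ubiquitin ligase towards misfolded proteins, had signals of 56.2, 114 and 91.6 on the untreated arrays and 2965, 2712 and 2744 on the arsenate arrays. Only genes whose groups did not overlap could enter the largest rises and falls.

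Some of the largest changes were in genes without a standard symbol. YDL218W had signals of 52.8, 55.3 and 49.8 on the untreated arrays and 2859, 3473 and 2922 on the arsenate arrays, a 58.5-fold rise. YOR387C had signals of 1123, 1183 and 2314 on the untreated arrays and 23.8, 14.6 and 26.7 on the arsenate arrays (log2 change -6.11 ± 0.36, beside -6.09 ± 0.20 for VEL1). YKL107W rose 45.7-fold. A switch from absent on all untreated to present on all treated arrays was seen for 16 genes, and the reverse for 2. LSO1, which is known to respond to iron shortage, had signals of 6.19, 5.43 and 5.55 on the untreated arrays and 62.1, 57.7 and 61.2 on the arsenate arrays. It was higher (adjusted p = 2.65e-10), by an estimate of 10.5-fold here and 6-fold in the authors' deposited table. DTR1, a transporter of the spore wall, was higher by an estimate of 4.25-fold here and 3.16-fold there. MGA1, a heat shock factor relative, went from present to absent and was lower (adjusted p = 0.00453). Its fall was an estimated 4.45-fold here, and its signed score in the authors' deposited table was -2.93. The estimates here set each absent array at its own signal or at the lowest signal called present on it, whichever is higher. They are not lower limits.

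Genes near chromosome ends had other shares of large changes than all genes, a description that was not tested. Of the 10 outermost protein-coding genes at each end, by gene order in assembly R64, 240 of 320 were measured. Of these 31.7% rose by at least 2-fold, against 17.2% of all genes, and 10.8% fell by at least 2-fold, against 17.8%. With only probe sets that read 1 gene, the shares were 35.3% and 11.8% of 187 genes. Their median untreated log2 signal was 7.69 against 9.62 over all genes, and the part of this lower level in the result was not tested.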

How the data were processed

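RNA from 6 wild-type arrays was analysed with the 9 mutant arrays in one model. The deposited files give a linear intensity (Signal) and a detection call for 10928 probe sets. The submitters' processing notes name Partek, while the summary of probes is not given in those notes. The authors' deposited table holds mean intensities and a signed score (fold change, below 0 for genes lower with arsenate), used here to name some probe sets and to compare directions and the size of the largest changes.

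Probe sets were matched to 5582 genes by the platform annotation (5498 probe sets) or the authors' deposited table (134), while 1746 belonged to another species and 3336 had no gene name. For 48 genes with several probe sets the brightest was used. Intensities were quantile normalized, values under 1 set to 1, and log2 taken. A group-means model over the 15 arrays was fitted with limma (version 3.58.1, R 4.3.3), with a two-sided test and Benjamini-Hochberg adjustment at 0.05, after a trial on simulated data. The number of arrays limits the precision. Same-numbered samples did not deviate together (correlations -0.14, -0.11 and 0.04), so no pairing was used.

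The 77 gene lists and 80 pairs were chosen with earlier results of these data known. Named genes were arsenic genes, the 15 largest rises and falls, up to 5 members per list with the largest change and the largest against its direction, contrasting pairs, up to 12 detection switches, marker and reference genes, and up to 5 genes without a standard symbol. The largest changes, with or without a standard symbol, were taken from called genes whose groups did not overlap. There were 16 alternatives. The array type in the design text differs from that of the probe set names, and the names were used. Sequences were not analysed here.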

Additional observations from a re-analysis of the deposited data

Results flagged for a closer look

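Probe sets of another species, which the comparison did not use, also gave calls. Of 1746 such probe sets 62 were higher and 72 were lower after arsenate (7.67% together) by the same limma test, against 81.2% of yeast genes. Their median signal before normalization was 1.80 to 2.90 on the 6 arrays. Groups of 3 arrays were too small for a test of single outlying values.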

How the results depend on the processing

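Counts of genes called stayed within 1.5 times under all 16 alternatives. Without 1 replicate the higher genes numbered 2242 to 2367 and the lower ones 2102 to 2177. With a replicate block they were 2341 and 2179, although the replicate numbers did not pair the samples. Against a minimum of 1.2-fold they were 1859 and 1730. Of 200 genes named in the results above with a call, 189 kept it in every alternative, but most were picked for large changes. Not counted there are the auxotrophic markers ADE2 and LEU2. ADE2 was called higher with overlapping groups and lost its call in 3 of 16 alternatives, and LEU2 was called lower and lost it in 2. The exceptions among the 200 were ADH1, YAP6, RPL15B, TRX1, TRX2, ORM2, GSP1, TKL1, RNR3, FPS1 and PHO87, of which GSP1, TKL1, RNR3, FPS1, PHO87 and TRX1 lost it only against 1.2-fold. Of genes with no call, TSA1 and MFA1 passed without untreated replicate 2, TSA1 also with trend and robust moderation, and MET17 without treated replicate 1. Under scaling by the 75th percentile and by the median, ACT1 turned to -0.21 and -0.27, ADH1 to -0.22 and -0.28, and TSA1 to -0.17 and -0.22, and TRX2 to 0.00 and -0.05. List medians turned to -0.21 and -0.27 for CCT chaperonin and for septins, tubulin and actin, -0.24 and -0.30 for glycolysis, -0.22 and -0.28 for reference genes, -0.21 and -0.26 for auxotrophic markers, and by the median alone to -0.04 for lysine synthesis. Without 1 replicate, medians ranged from -0.21 to 0.02 for efflux pumps, -0.06 to 0.04 for CCT chaperonin, -0.39 to 0.03 for purine synthesis, -0.01 to 0.11 for lysine synthesis and -0.17 to 0.30 for auxotrophic markers, and LYS2, absent on all arrays, from -1.73 to 0.02. Whether scaling or quantile normalization is nearer the true levels was not tested. Fold sizes of genes near the detection limit are uncertain.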
